A study of Drosophila melanogaster with 30 samples.

Results

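The Or, Gr and Ir genes encode the chemosensory receptors of Drosophila melanogaster, and 181 of the 14284 genes in the deposited tables belong to them. The members were taken by name (Or, Gr or Ir followed by digits and letters, chromosome 4 left out), with no measured value used. They comprise 59 odorant receptors (Or), 63 gustatory receptors (Gr) and 59 ionotropic receptors (Ir). Of the members, 46 lie on chromosome arm 2R, 42 on 3R, 36 on 3L, 32 on 2L and 25 on X. All 181 matched a symbol or synonym of the RefSeq gene table, which lists them as protein-coding.

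Or proteins are membrane channels that pair with the shared co-receptor Orco and detect volatile odours. Gr proteins are relatives of Or proteins and detect sugars, bitter compounds, carbon dioxide and, for some members, heat or light. Ir proteins descend from ionotropic glutamate receptors and detect acids, amines, salts, temperature and humidity, with Ir8a, Ir25a, Ir76b and Ir93a acting as co-receptors. Most of these genes are transcribed in a few classes of sensory neurons of the antenna, palp, leg and mouthparts, so that in the larval brain they are a set of genes that is mostly not in use. Trimethylated lysine 4 of histone H3 (H3K4me3) marks the starts of active genes, and trimethylated lysine 27 (H3K27me3) is laid down by Polycomb repressive complex PRC2 over repressed genes.

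Both marks had been profiled by chromatin immunoprecipitation after digestion with micrococcal nuclease, in cells taken from brains of larvae at the wandering L3 stage. The 4 groups were type I neuroblasts (neural stem cells), neuroblasts with RNAi against brat, neuroblasts with RNAi against brat and numb, and neurons, with 2 libraries per group and mark. The labels call both RNAi groups tumor neuroblasts; brat encodes a translational repressor and numb an inhibitor of Notch signalling, and their loss gives overproliferating neuroblasts. The labels name no driver, sorting marker or strain, and RNAi acts on transcripts, so the counts of these marks do not check the knockdowns.

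H3K4me3 was counted in 501 bases at the start of each gene and is given as CPM, the count relative to the library's total after TMM scaling. H3K27me3 was counted over the whole gene model (median 1605 bases for members, 2029 for all genes) and is given as CPM per kb, which allows levels of genes of different length to be compared. A percentile is the share of all genes tested in the same library that had a lower level. Values are given in the order replicate 1, replicate 2, and coordinates are those of the deposited tables (genome build dm3, gene model from first to last base).

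The libraries were first compared with marker genes. At the 6 neuroblast markers (dpn, wor, mira, insc, ase and CycE) the median H3K4me3 was 189 and 174 CPM in type I neuroblasts and 24.6 and 25.1 CPM in neurons, and dpn, wor, mira and CycE passed the test as lower in neurons. It was 151 and 93.2 CPM in brat RNAi and 85.0 and 176 CPM in brat RNAi numb RNAi neuroblasts. Of these markers ase passed the test as lower in brat RNAi than in type I neuroblasts, so these 2 groups also differ at a neuroblast marker. The 6 neuron markers matched had medians of 52.9 and 53.1 CPM in neurons, against 43.6 and 9.41 CPM in type I neuroblasts. Glial and hemocyte markers were low in every library, with medians from 3.80 to 14.1 and from 4.005 to 13.2 CPM. Total counts ran from 2461222 to 12258131 for H3K4me3 and from 15281722 to 25009648 for H3K27me3, which left a median of 33 to 99 reads per member and library for H3K4me3 and 293 to 491 for H3K27me3. For H3K4me3, 3 libraries (brat RNAi replicate 2, brat RNAi numb RNAi replicate 1 and neurons replicate 2) stood apart, with a median of 99.3 to 123 CPM at 87 ribosomal protein genes against 205 to 351 CPM in the other 5. For H3K27me3 the median over the 8 Hox genes, textbook Polycomb targets, was lowest in neurons replicate 2 (25.5 CPM per kb) and highest in neurons replicate 1 (134 CPM per kb). Each result below that rests on these libraries is given beside them.

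Receptor genes carried little H3K4me3 at their starts in every group. The median member reached 4.56 and 6.66 CPM in type I neuroblasts, 6.79 and 13.8 CPM in brat RNAi neuroblasts, 17.8 and 6.25 CPM in brat RNAi numb RNAi neuroblasts, and 6.70 and 13.4 CPM in neurons. The corresponding medians of all 14185 genes tested were 10.6 and 13.9, 11.1 and 22.8, 22.2 and 13.7, and 11.1 and 20.5 CPM. The 3 libraries with low ribosomal levels were thus the 3 with the highest member levels, and the part of this in the comparisons between groups was not tested beyond leaving those libraries out. In percentiles, the median member ranked at 32.3 as a mean over the 8 libraries, with a range from 28.03 (brat RNAi numb RNAi replicate 2) to 41.3 (brat RNAi numb RNAi replicate 1).

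On their mean percentile, 170 of the 181 members lay below the median of all genes and none above the 75th percentile. Of all 14185 genes tested, 7529 lay below it, 2609 between the 75th and 90th percentiles and 1031 above the 90th. In each of the 8 libraries 95 members were below the median, as were 5255 of all genes. A single member, Gr61a, was above the median in all 8, as were 5948 of all genes. The members' windows make up 1.27% of all bases counted for H3K4me3 and held from 0.0677% of the reads (type I replicate 1) to 0.496% (brat RNAi numb RNAi replicate 1). The label of genes mostly silent in the larval brain therefore matched their H3K4me3, although transcripts were not measured.

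The 3 families differed little in this mark. The median H3K4me3 percentile was 30.2 for Or, 35.9 for Gr and 29.9 for Ir genes, and the median of the genes' mean levels was 9.84, 10.4 and 9.27 CPM. Levels of Or genes ran from 4.10 to 21.4 CPM, those of Gr genes from 4.66 to 50.2 CPM and those of Ir genes from 4.49 to 25.7 CPM. Gr genes had the highest median of the 3 families in 7 of the 8 libraries and tied with Ir genes in type I replicate 1. The members were also uniform: the SD of the log2 mean level was 0.53 over members and 2.06 over all genes.

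**Figure D1:**
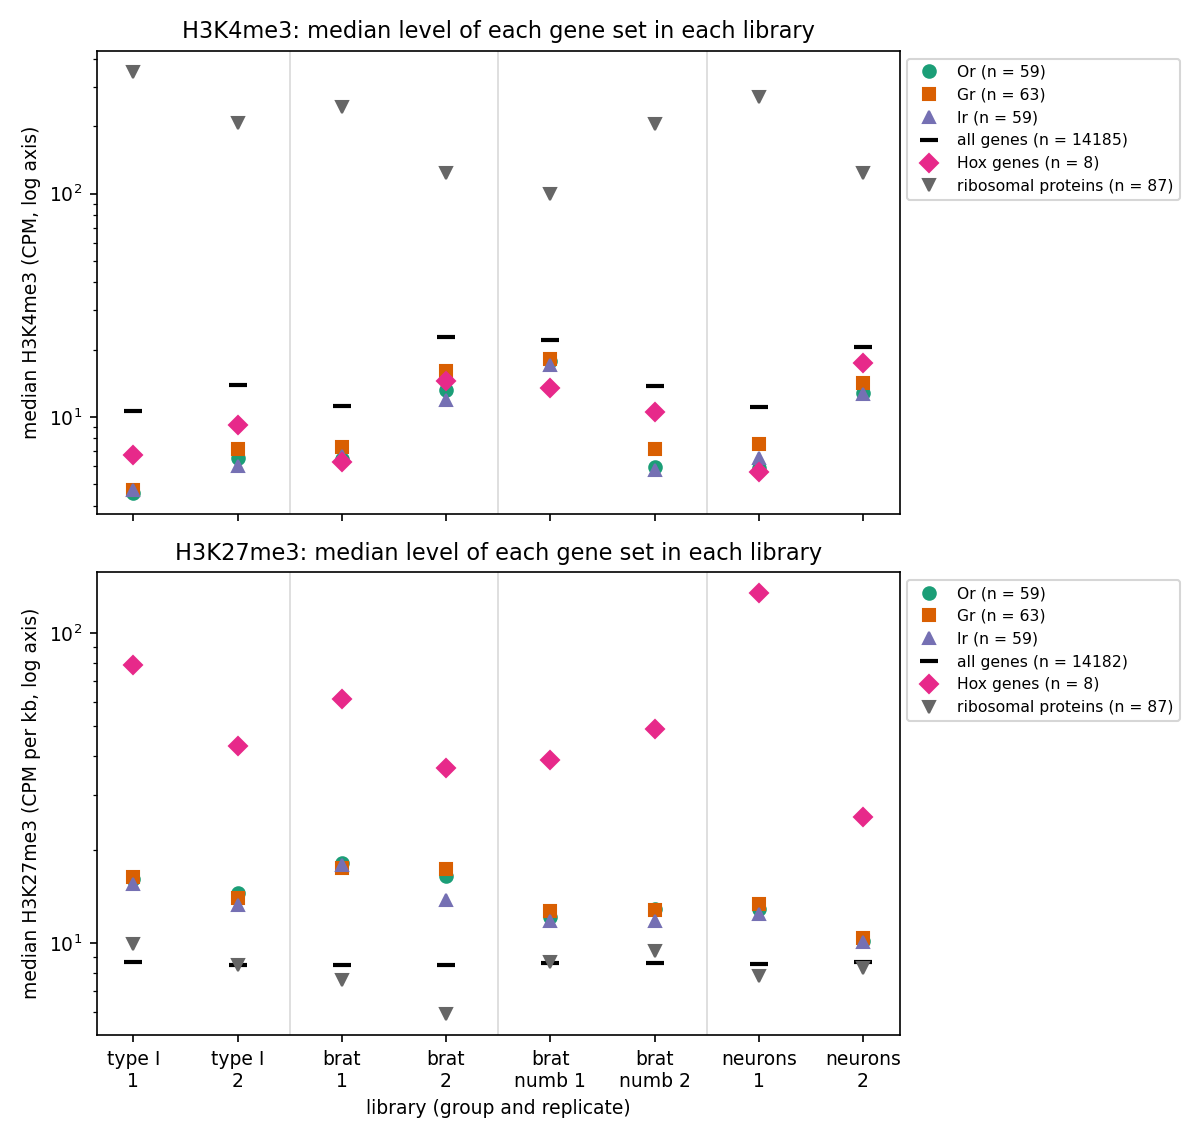
Median H3K4me3 (top, CPM) and H3K27me3 (bottom, CPM per kb) of the Or, Gr and Ir families, all genes, Hox genes and ribosomal protein genes in each of the 8 libraries, on log axes; each point is the median over the genes of a set. Receptor families lie below the median of all genes for H3K4me3 and above it for H3K27me3 in all 8 libraries, and their H3K4me3 is highest in the 3 libraries where ribosomal protein genes are lowest.

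H3K27me3 showed the opposite order. The median member had 15.9 and 14.01 CPM per kb in type I neuroblasts, 17.9 and 16.2 CPM per kb in brat RNAi neuroblasts, 12.3 and 12.5 CPM per kb in brat RNAi numb RNAi neuroblasts, and 12.8 and 10.2 CPM per kb in neurons. The median of all 14182 genes tested stayed between 8.46 and 8.71 CPM per kb. Relative to it, members stood 1.74 ± 0.13-fold higher in type I neuroblasts, 2.01 ± 0.14-fold in brat RNAi, 1.44 ± 0.01-fold in brat RNAi numb RNAi and 1.33 ± 0.23-fold in neurons (mean of the ratios of medians ± SD, n = 2). The groups of this ratio overlap only between brat RNAi numb RNAi neuroblasts and neurons, where it was 1.43 and 1.45 against 1.49 and 1.17. By share of reads the excess was smaller. The members' gene models make up 0.488% of all bases counted for H3K27me3. They held from 0.459% of the reads (neurons replicate 1) to 0.702% (brat RNAi replicate 2), with 0.533% in neurons replicate 2. In neurons replicate 1 the share of reads was thus below the share of bases.

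The median member ranked at percentile 79.8 for H3K27me3 (75.7 to 86.6 over the libraries), and 160 members lay above the median of all genes on their mean. In each of the 8 libraries, 109 members were above it and 3 below it. Of all 14182 genes tested, 6896 were above it on their mean, 3555 above it in every library and 3411 below it in every library. Medians by family were 80.5 for Or, 81.1 for Gr and 76.8 for Ir genes. The level was moderate beside that of the Hox genes, whose median over the genes' means was 57.7 CPM per kb against 14.1 CPM per kb for members, 4.08-fold higher. The median Hox gene ranked between percentiles 98.5 and 99.5 in the 8 libraries, and Or85a, the highest member, did not fall below percentile 95.6 in any of them. Without the division by length the median member ranked at percentile 57.8, and the members' gene models are shorter than those of most genes.

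With both marks read together, 156 of the 181 members (86.2%) combined H3K4me3 below the median with H3K27me3 above it, a combination found at 40.9% of all genes. By family these were 52 of 59 Or, 54 of 63 Gr and 50 of 59 Ir genes. Of the other members, 14 were below the median for both marks, 7 had H3K4me3 above and H3K27me3 below it, and 4 were above it for both. Across all 14181 genes tested for both marks the 2 levels were inversely ordered (Spearman's rho = -0.54). Within the members rho was -0.10 (Or 0.02, Gr -0.24 and Ir -0.13). Pearson's correlation of the log2 levels was -0.50 for all genes and -0.24 for members. Members span a narrower range of H3K4me3 (SD of log2 0.53 against 2.06), and its part in the weaker correlation was not tested. These are descriptions across genes of the same libraries, and genes are not independent replicates.

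**Figure D2:**
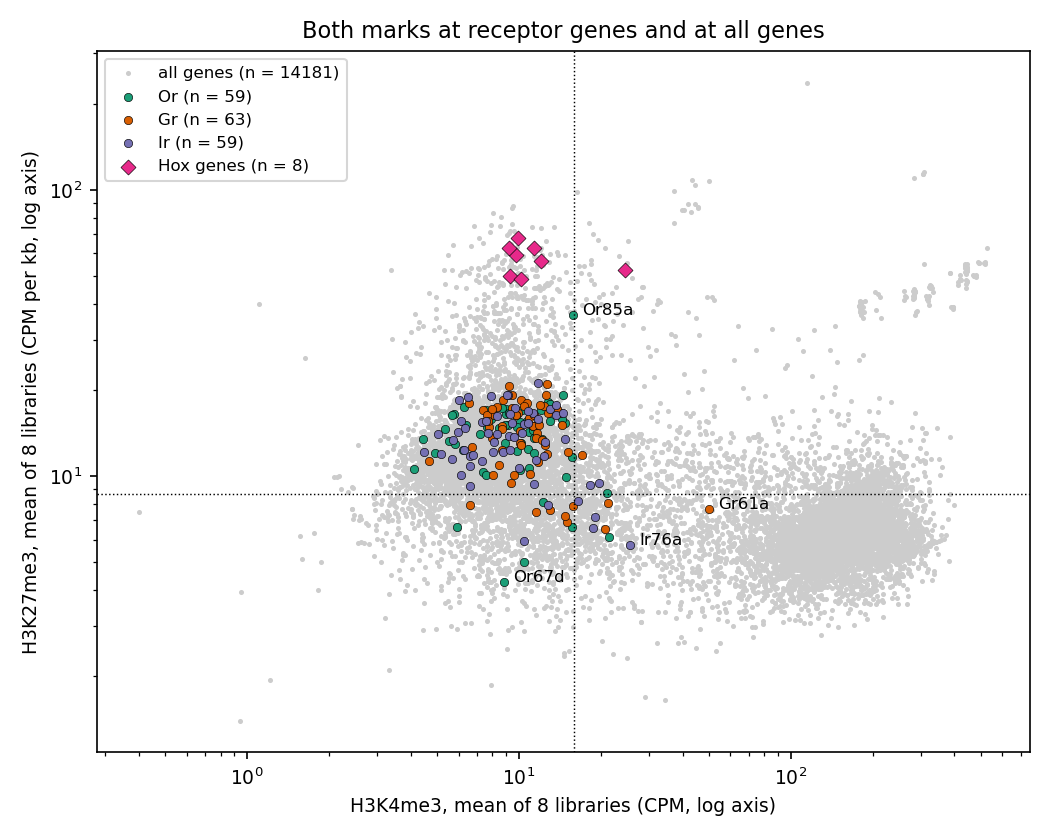
Mean H3K4me3 (x axis, CPM) against mean H3K27me3 (y axis, CPM per kb) over the 8 libraries, on log axes, with each gene a point and dotted lines at the medians of all genes. Most receptor genes (156 of 181) fall in the upper left field, below the Hox genes, and Gr61a, Ir76a, Or85a and Or67d lie at the edges of the cloud.

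In the 25 Or genes of the larval nose the median H3K4me3 percentile was 32.2 and the median H3K27me3 percentile 78.1, against 28.9 and 81.5 for the 34 other Or genes, medians that lie close together. Among the larval receptors, Or42b, which detects fruit esters such as ethyl acetate (chr2R:1684700-1686017), had 5.02 and 8.37 CPM per kb in type I neuroblasts, 15.1 and 11.5 in brat RNAi, 11.2 and 9.49 in brat RNAi numb RNAi and 14.9 and 9.86 in neurons. Type I neuroblasts were the lowest group, with no overlap, but the change in brat RNAi neuroblasts (0.99 ± 0.35 log2, SE) did not pass the test (adjusted p = 0.74). Its neighbour Or42a, also an ester receptor, shares a tandem cluster with it. Or42a had 14.6 and 10.8 CPM per kb in type I neuroblasts, 17.01 and 16.6 in brat RNAi, 12.7 and 14.6 in brat RNAi numb RNAi and 16.1 and 11.7 in neurons. Both brat RNAi values lie above all others, and the other groups overlap. The change in brat RNAi neuroblasts (0.41 ± 0.30 log2, SE) did not pass the test (adjusted p = 0.93).

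Or22a, the receptor for ethyl hexanoate and methyl hexanoate, had a mean H3K27me3 of 15.5 CPM per kb. Its H3K4me3 was 4.70 and 5.06 CPM in type I neuroblasts, 6.79 and 14.5 in brat RNAi, 23.1 and 6.05 in brat RNAi numb RNAi and 5.06 and 15.5 in neurons, high where ribosomal levels were low. Or85c, a larval receptor, and its tandem partner Or85b had 16.97 and 19.3 CPM per kb, among the higher H3K27me3 levels of the family. Or24a, another larval receptor, had 18.2 CPM per kb. Orco, the co-receptor of all Or proteins and by its name no member, resembled the receptors: its H3K4me3 was 4.28 and 3.02 CPM in type I neuroblasts, 8.21 and 3.53 in brat RNAi, 10.4 and 5.75 in brat RNAi numb RNAi and 8.75 and 12.3 in neurons. Its H3K27me3 ranked at percentile 72.7. In neurons the H3K4me3 of Orco was above both type I values, with a log2 fold change of 1.53 ± 0.81 (SE) that did not pass the test (adjusted p = 0.72).

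Or85a, a receptor of fruit-derived esters, had the highest H3K27me3 of all members (chr3R:4147469-4148776). Its levels were 52.8 and 39.6 CPM per kb in type I neuroblasts, 35.7 and 31.5 in brat RNAi, 32.1 and 37.3 in brat RNAi numb RNAi and 48.1 and 15.3 in neurons. The neuron libraries lie far apart here, with replicate 2 the lowest of all 8, as for the Hox genes, and they overlap every other group. Both type I values lie above every value of the RNAi groups, which overlap each other. Or85a lies inside the gene model of Poxm, a paired-box transcription factor gene whose own H3K27me3 averaged 29.9 CPM per kb, so the reads of the smaller gene are also counted for the larger. Its H3K4me3 was 6.63 and 9.68 CPM in type I neuroblasts, 8.21 and 38.6 in brat RNAi, 30.1 and 11.2 in brat RNAi numb RNAi and 7.25 and 14.8 in neurons, high in the brat RNAi and brat RNAi numb RNAi libraries with low ribosomal levels and not in their partners.

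Or67d, the receptor for the male pheromone cis-vaccenyl acetate, had the lowest H3K27me3 of all members (chr3L:10266304-10267724). It measured 2.13 and 5.85 CPM per kb in type I neuroblasts, 1.04 and 4.66 in brat RNAi, 5.11 and 3.86 in brat RNAi numb RNAi and 4.14 and 7.25 in neurons, a mean percentile of 8.84. Its H3K4me3 was below the median of all genes on average, with 3.87 and 9.94 CPM in type I neuroblasts, 5.47 and 1.93 in brat RNAi, 17.1 and 13.6 in brat RNAi numb RNAi and 6.70 and 12.2 in neurons. Both marks were thus low, and the value in brat RNAi replicate 2, the shallowest library, rests on 6 reads.

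The highest H3K4me3 of the family was found at 3 genes: Or43b with a mean of 21.4 CPM, Or85f, which responds to odours of parasitoid wasps, with 21.1 CPM, and Or85a with 15.8 CPM. Or43b had 10.1 and 16.7 CPM in type I neuroblasts, 13.7 and 36.6 in brat RNAi, 33.5 and 15.5 in brat RNAi numb RNAi and 15.04 and 30.1 in neurons. Its H3K27me3 averaged 6.12 CPM per kb, below the median of all genes, and that of Or85f 8.77 CPM per kb. The start of Or43b lies 2379 bases from that of Kdm4A, a histone demethylase gene with a mean of 138 CPM, and that of Or85f 1859 bases from CG34117, with 166 CPM.

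Among gustatory receptors, Gr61a, a glucose receptor of the sugar clade, had by far the most H3K4me3 (chr3L:841451-843701). It measured 56.2 and 76.2 CPM in type I neuroblasts, 61.6 and 60.1 in brat RNAi, 34.4 and 62.6 in brat RNAi numb RNAi and 20.6 and 30.1 in neurons. Both neuron values lie below all 6 neuroblast values, and the change from type I neuroblasts was -1.38 ± 0.68 (log2, SE), which did not pass the test (adjusted p = 0.66). The start of Gr61a lies 91 bases from that of CG13902, whose H3K4me3 was 150 and 157 CPM in type I neuroblasts, 131 and 68.4 in brat RNAi, 62.2 and 169 in brat RNAi numb RNAi and 77.0 and 49.1 in neurons. At this distance the mark of the neighbouring start and that of Gr61a cannot be told apart. CG13902 had a change of -1.29 ± 0.67 (SE) in neurons, also short of the threshold (adjusted p = 0.72).

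**Figure D3:**
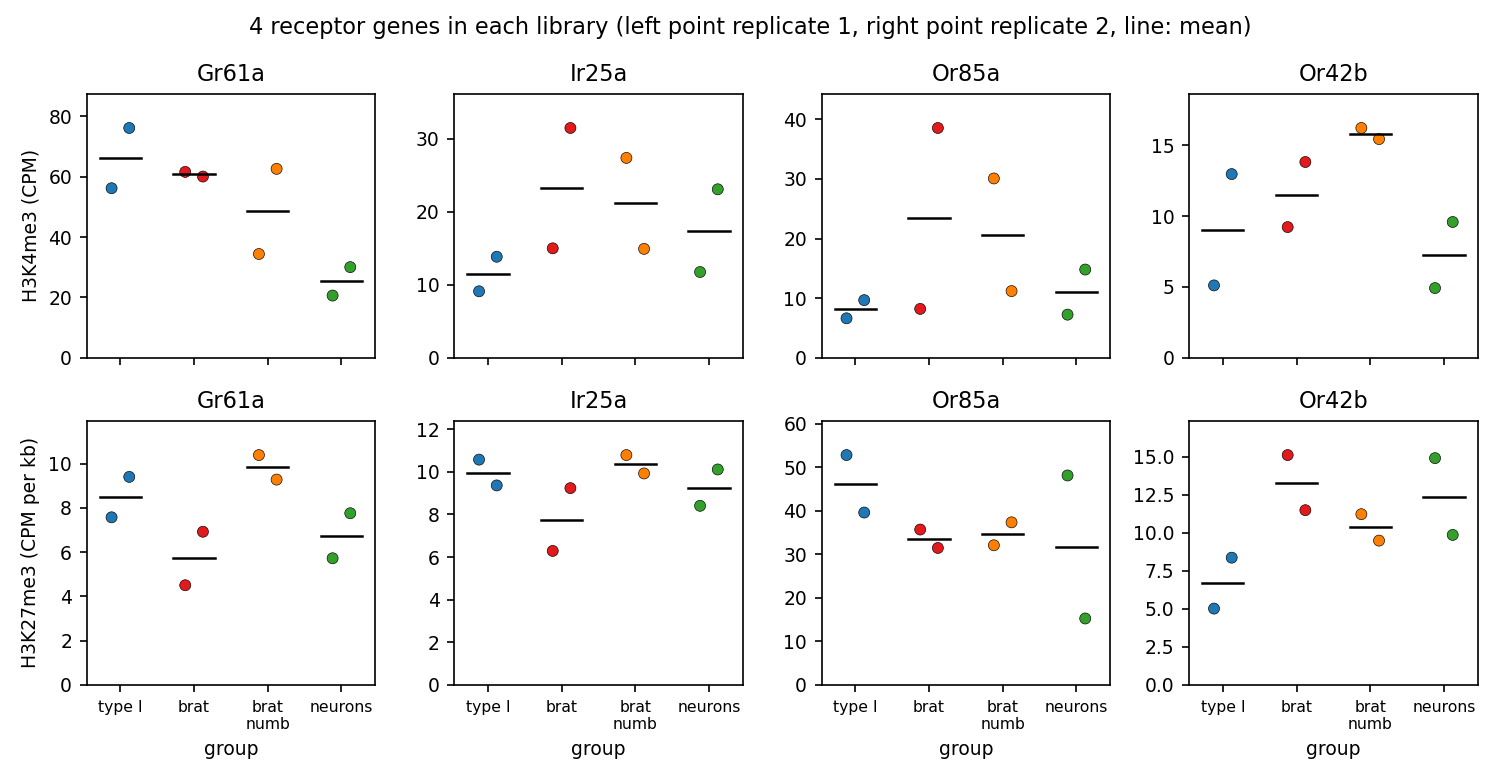
H3K4me3 (top, CPM) and H3K27me3 (bottom, CPM per kb) of Gr61a, Ir25a, Or85a and Or42b in each library, with points for replicates 1 and 2 and a line at their mean; each panel has its own axis from 0. Gr61a is lowest in neurons for H3K4me3, Or42b is lowest in type I neuroblasts for H3K27me3, and Or85a spans 15.3 to 52.8 CPM per kb.

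The 9 Gr genes of the sugar clade had a median H3K4me3 percentile of 40.7 and a median H3K27me3 percentile of 79.8, against 33.9 and 81.2 for the 52 Gr genes that are neither sugar nor carbon dioxide receptors. Gr64f, the partner subunit of most sugar receptors, had a mean of 12.6 CPM of H3K4me3 and 11.95 CPM per kb of H3K27me3, the latter between 11.2 and 13.1 CPM per kb in all 8 libraries. Gr5a, the trehalose receptor, had 11.0 CPM and 10.2 CPM per kb. Gr43a, the fructose receptor that also acts in a few brain neurons, lay below the median of all genes in its mean H3K27me3, with 4.39 and 7.31 CPM per kb in type I neuroblasts, 3.90 and 7.98 in brat RNAi, 9.24 and 8.10 in brat RNAi numb RNAi and 6.53 and 10.5 in neurons. Its gene model shares bases with CG11107. For H3K4me3 Gr43a had 5.94 and 12.9 CPM in type I neuroblasts, 12.3 and 23.8 in brat RNAi, 20.4 and 13.7 in brat RNAi numb RNAi and 8.48 and 21.1 in neurons, and neurons were not set apart from neuroblasts.

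Gr21a and Gr63a, which together form the carbon dioxide receptor, had mean H3K27me3 of 17.1 and 15.1 CPM per kb. Gr21a measured 18.1 and 20.7 CPM per kb in type I neuroblasts, 28.4 and 12.98 in brat RNAi, 15.8 and 17.2 in brat RNAi numb RNAi and 14.8 and 8.43 in neurons and Gr63a 12.9 and 11.4 CPM per kb in type I neuroblasts, 15.3 and 11.7 in brat RNAi, 12.8 and 14.8 in brat RNAi numb RNAi and 28.99 and 13.2 in neurons. In each a single library stands high, brat RNAi replicate 1 for Gr21a and neurons replicate 1 for Gr63a. Gr66a, a bitter receptor subunit needed for the response to caffeine, was among the 3 Gr genes with the most H3K4me3 (12.2 and 22.3 CPM in type I neuroblasts, 17.9 and 25.4 in brat RNAi, 27.6 and 19.97 in brat RNAi numb RNAi and 9.30 and 31.4 in neurons), and its H3K27me3 was low at a mean of 6.54 CPM per kb. Gr47b had a mean of 21.3 CPM, beside 20.7 CPM for Gr66a. Gr28b, a locus with roles in heat and light sensing, was typical, with 8.65 CPM of H3K4me3 and 14.7 CPM per kb of H3K27me3.

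The highest H3K27me3 of the family was found at Gr59a, with 27.8 and 23.6 CPM per kb in type I neuroblasts, 24.9 and 25.6 in brat RNAi, 17.01 and 19.8 in brat RNAi numb RNAi and 16.998 and 11.5 in neurons, then at Gr89a (mean 20.7 CPM per kb) and at Gr59b, the tandem neighbour of Gr59a (19.3 CPM per kb). At Gr59a all 4 values of type I and brat RNAi neuroblasts lie above all 4 of the other groups. The change in neurons was -0.86 ± 0.30 (log2, SE) and did not pass the test (adjusted p = 0.53).

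The ionotropic receptors of the antenna (17 genes) had a median H3K4me3 percentile of 34.01 and a median H3K27me3 percentile of 72.4, against 28.9 and 79.6 for the 42 other Ir genes, many of which are taste receptors. The 4 co-receptors had different levels. Ir25a, the most widely used co-receptor (chr2L:4830846-4835300), had H3K4me3 of 9.11 and 13.8 CPM in type I neuroblasts, 15.0 and 31.5 in brat RNAi, 27.4 and 14.9 in brat RNAi numb RNAi and 11.8 and 23.1 in neurons. Its H3K27me3 was 10.6 and 9.36 CPM per kb in type I neuroblasts, 6.29 and 9.23 in brat RNAi, 10.8 and 9.92 in brat RNAi numb RNAi and 8.41 and 10.1 in neurons, on both sides of the median of all genes. Ir8a, the co-receptor for acids, had means of 11.4 CPM and 9.40 CPM per kb, and shares a cluster on X with Gr8a.

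Ir93a, needed for cooling and humidity responses, had more H3K27me3, 16.6 and 15.9 CPM per kb in type I neuroblasts, 20.5 and 21.2 in brat RNAi, 15.3 and 15.5 in brat RNAi numb RNAi and 15.4 and 12.3 in neurons, with both brat RNAi values above all others. Ir76b, the co-receptor for amines and for several tastes, had the least H3K4me3 of the Ir family, 1.80 and 3.02 CPM in type I neuroblasts, 5.47 and 3.86 in brat RNAi, 5.95 and 3.63 in brat RNAi numb RNAi and 6.29 and 5.95 in neurons, with a mean of 12.2 CPM per kb of H3K27me3. Ir21a, the cooling receptor subunit that works with Ir25a and Ir93a, had 6.93 and 9.10 CPM per kb in type I neuroblasts, 11.2 and 13.7 in brat RNAi, 11.8 and 12.4 in brat RNAi numb RNAi and 17.2 and 11.5 in neurons. Its type I values were the lowest of the groups, and the change in neurons was 0.84 ± 0.32 (log2, SE) without passing the test (adjusted p = 0.53). Ir21a shares bases with the noncoding gene CR43609, whose H3K4me3 passed the test as lower in neurons than in type I neuroblasts. The part of CR43609 in the H3K27me3 of Ir21a was not tested.

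Ir76a, an amine receptor subunit, had the most H3K4me3 of the Ir family (chr3L:19792378-19796527). Its levels were 10.1 and 19.5 CPM in type I neuroblasts, 13.5 and 45.3 in brat RNAi, 43.1 and 16.04 in brat RNAi numb RNAi and 20.5 and 37.6 in neurons, with H3K27me3 at a mean of 5.76 CPM per kb (percentile 23.7). Its gene model shares bases with CG14102, whose start is 2008 bases away. Ir60e and Ir31a followed with means of 19.7 and 19.1 CPM, and lie 328 and 900 bases from the starts of CG13585 and CG17768. H3K27me3 was highest at Ir85a (21.2 CPM per kb, inside the gene model of Pif1A), Ir52b (19.3) and Ir67a (19.1).

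Members near the start of another gene with H3K4me3 above the median of all genes had more H3K4me3 and less H3K27me3 than the rest. This split, at a distance of 3000 bases, was chosen after values had been seen and is given as a description. The 20 members with such a neighbour had a median H3K4me3 percentile of 50.6 and a median H3K27me3 percentile of 59.4, against 30.1 and 80.9 for the other 161. Of the 11 members above the median in H3K4me3, 9 are among the 20. The neighbours' own reads were not separated from those of the members.

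Position inside other genes went with smaller differences. The 24 members lying inside another gene model had median percentiles of 31.004 for H3K4me3 and 78.9 for H3K27me3, against 32.6 and 79.9 for the other 157. Reads are shared with a gene that is no member at 3 H3K4me3 windows and 37 H3K27me3 gene models. Among members, Gr64b and Gr64c have the same coordinates and so the same counts, and Gr64d and Gr64e overlap.

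The chromosome also went with the level. The 25 members on X had a median H3K4me3 percentile of 16.96 and a median H3K27me3 percentile of 59.9, whereas all genes of X had medians of 51.6 and 26.3. These are means over the 8 libraries. For H3K27me3 the X members ranked at 15.4 in neurons replicate 2, the library with the lowest Hox level, and at 60.7 to 72.0 in the others. All genes of X ranked at 11.6 in that library and at up to 42.1 elsewhere. On the 4 autosomal arms the medians of members ran from 33.1 to 37.1 for H3K4me3 and from 76.5 (3L) to 86.2 (3R) for H3K27me3. The part of X copy number in these values was not tested.

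Many receptor genes arose by tandem duplication and sit side by side. With members joined where fewer than 10000 bases separate neighbours, 83 members fell into 28 clusters of at most 6 genes, 26 of them of a single family, and 98 members stood alone. Clustered members ranked higher in H3K27me3 (median percentile 82.9, with 81 of 83 above the median of all genes) than those standing alone (74.9, with 79 of 98). Their median H3K4me3 percentiles were both 32.2.

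Members of a cluster resembled each other in H3K27me3. The SD of the log2 mean level within clusters was 0.20, against 0.29 over all clustered members, 0.45 over all 181 members and 0.76 over all genes. It was also 0.20 without Gr64c and Gr64e, which share bases with other members. The largest clusters, named here for their size, are the sugar receptors Gr64a to Gr64f (chr3L:4026769-4037575), with 11.95 to 16.7 CPM per kb, and Ir7b to Ir7g (chrX:7758623-7781009), with 10.1 to 13.2 CPM per kb. At the top stood Gr59a and Gr59b (19.3 to 20.9 CPM per kb), and at the bottom Gr8a and Ir8a (7.92 and 9.40 CPM per kb), which belong to different families.

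**Figure D4:**
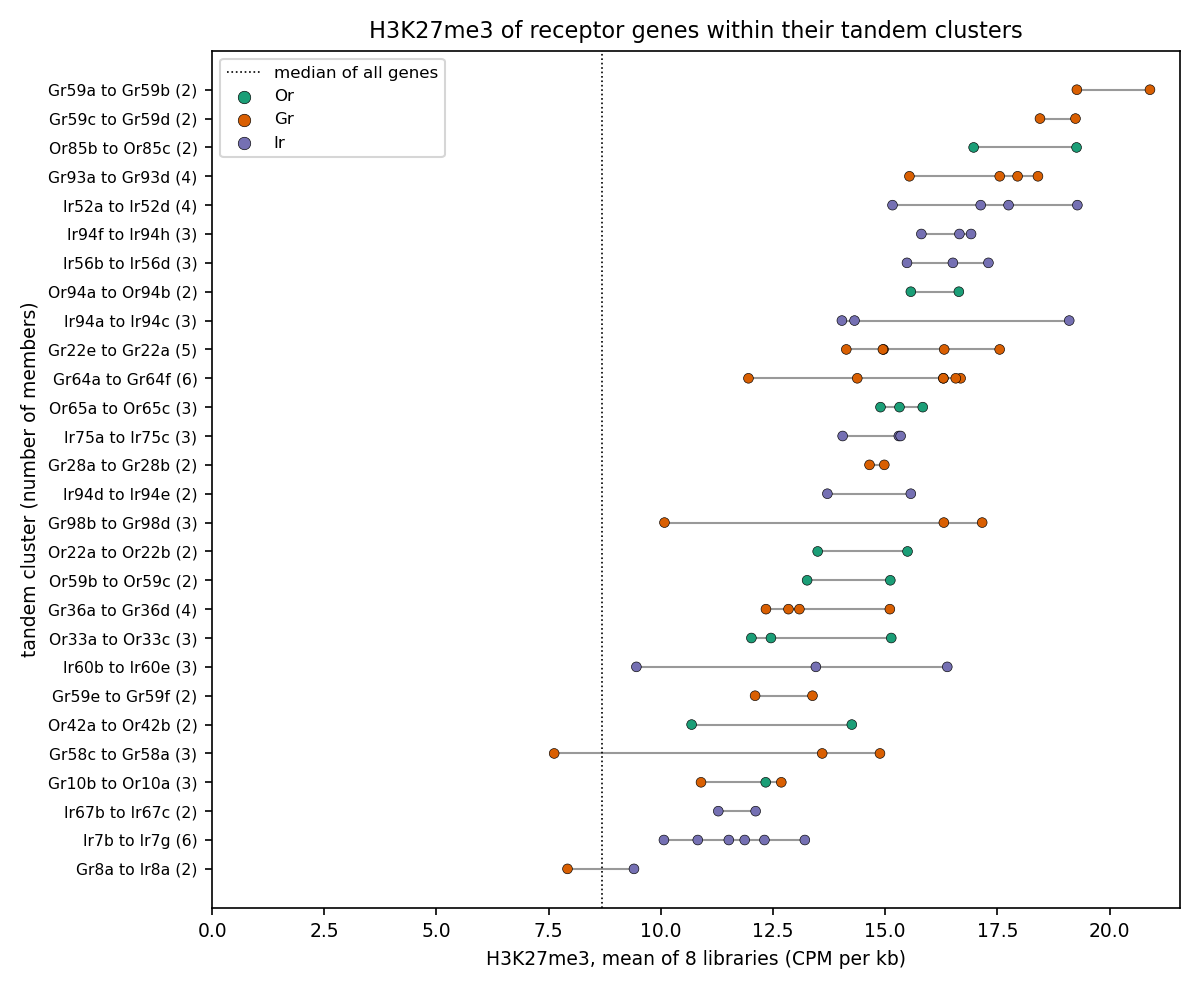
Mean H3K27me3 over the 8 libraries (x axis, CPM per kb) of each member of the 28 tandem clusters, ordered by the cluster mean, with a line from the lowest to the highest member and a dotted line at the median of all genes. 81 of the 83 members lie above the median. Clusters such as Gr93a to Gr93d (15.5 to 18.4 CPM per kb) are narrow beside the range of all clusters (7.62 to 20.9 CPM per kb). Others are wide, such as Gr58c to Gr58a (7.62 to 14.9 CPM per kb) and Gr98b to Gr98d (10.1 to 17.2 CPM per kb).

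The 4 comparisons between groups were tested over all genes with edgeR's quasi-likelihood test and Benjamini-Hochberg adjustment, and no member passed an adjusted p of 0.05 in any of the 8 combinations of mark and comparison. DESeq2 on the same genes also called no member in any of them. The first 3 comparisons share the type I libraries, so their values are not independent of each other. The median SE of a member's log2 fold change was 0.83 to 0.84 for H3K4me3 and 0.32 to 0.33 for H3K27me3, which limits the changes a test with 2 libraries per group can call. The direction of the whole set is described by its median beside that of all genes.

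Neurons were first set against type I neuroblasts. For H3K4me3, 0 of 181 members were called, where 0.451% of all genes were. At an unadjusted p under 0.05 a single member was higher (Ir48b, background 2.04%) and a single member lower (Gr61a, background 5.19%). Ir48b had 3.45 and 2.84 CPM in type I neuroblasts, 9.53 and 4.82 in brat RNAi, 5.95 and 2.62 in brat RNAi numb RNAi and 11.2 and 7.70 in neurons, with a change of 1.59 ± 0.78 (log2, SE) (adjusted p = 0.65). A log2 fold change above 0 was found at 170 members (55 of 59 Or, 60 of 63 Gr and 55 of 59 Ir), beside 59.5% of all genes, and the median was 0.68 for members and 0.24 for all genes. Within the 2 pairs of libraries that share a code in their labels (SBa 27 and SBa 51, whose meaning is not explained) the member median was 0.44 and 0.87. Without neurons replicate 2, a library with low ribosomal levels, the member median was 0.05, beside -0.05 for all genes, and without neurons replicate 1 or type I replicate 2 it was 1.29 and 1.12.

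In brat RNAi against type I neuroblasts, 0 members were called for H3K4me3 (0.0987% of all genes). At an unadjusted p under 0.05, 11 members were higher (background 3.39%), comprising 4 Or, 5 Gr and 2 Ir genes, and none was lower (background 2.13%). The member with the smallest p of each family was Or47a, a receptor of fruit esters, Gr36c and Ir20a. Or47a had 6.21 and 6.66 CPM in type I neuroblasts, 10.1 and 39.8 in brat RNAi, 21.8 and 6.45 in brat RNAi numb RNAi and 9.84 and 17.7 in neurons and a change of 1.94 ± 0.82 (log2, SE) (adjusted p = 0.76), with brat RNAi replicate 2 the highest library. The fold change was above 0 at 166 members, beside 49.3% of all genes, with medians of 0.84 and -0.02. Within SBa 27 the member median was 0.55, without brat RNAi replicate 2 it was 0.30, and without replicate 1 it was 1.26.

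In brat RNAi numb RNAi against type I neuroblasts, 0 members were called for H3K4me3 and 0.0% of all genes. Unadjusted, 7 members were higher (background 1.68%) and none lower (background 1.59%). Gr36a, Ir94f and Or49b had the smallest p of their families. Gr36a measured 4.005 and 4.17 CPM in type I neuroblasts, 6.08 and 11.6 in brat RNAi, 28.1 and 3.63 in brat RNAi numb RNAi and 7.66 and 15.2 in neurons, high in brat RNAi numb RNAi replicate 1 and lower in its partner than in type I neuroblasts. The fold change was above 0 at 180 members (background 55.8%), with medians of 0.99 for members and 0.27 for all genes, but without brat RNAi numb RNAi replicate 1 the member median was 0.20. These groups share no code. In a fit blocked on the code the member median was -0.39, the opposite direction. That fit gives brat RNAi numb RNAi replicate 1 no weight, because no other library of this mark shares its code.

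Against brat RNAi neuroblasts, brat RNAi numb RNAi neuroblasts had 0 members called for H3K4me3 and 0.0% of all genes. Unadjusted, 2 members were higher (Or67d and Gr65a, background 0.916%) and none lower (background 0.599%). The median was 0.07 for members and 0.01 for all genes. In the single pair with a shared code (SBa 68) it was -1.09, and leaving out each library in turn moved it from -0.91 to 0.96. The direction for the members' H3K4me3 thus changed with the library left out.

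Read by library rather than by group, the H3K4me3 of 89 members was highest in brat RNAi numb RNAi replicate 1, of 68 in brat RNAi replicate 2 and of 17 in neurons replicate 2. The share of all genes highest there was not counted. The median of all genes was also highest in these libraries (20.5 to 22.8 CPM, against 10.6 to 13.9 CPM in the others). The same 3 libraries had low ribosomal levels. With all 3 left out, every group but type I neuroblasts holds a single library. The member medians against type I neuroblasts were then 0.05 in neurons, 0.30 in brat RNAi and 0.19 in brat RNAi numb RNAi (all genes -0.05, 0.02 and -0.02). That alternative was added after the data had been seen. A fit blocked on the SBa code has a single residual degree of freedom, which comes from the pairs of neurons and type I neuroblasts. There 52 members passed in neurons (32.5% of all genes), and 51 of these were higher (background 16.3%). Between the RNAi groups the fit rests on the single pair of code SBa 68, because brat RNAi numb RNAi replicate 1 shares its code with no library. It measures no spread between RNAi libraries there, and the member median was -1.15. Type I replicate 1, which has the highest ribosomal levels, was the lowest library for 109 members. It also had the lowest median of all genes (10.6 CPM), and the share of all genes lowest there was not counted.

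**Figure D5:**
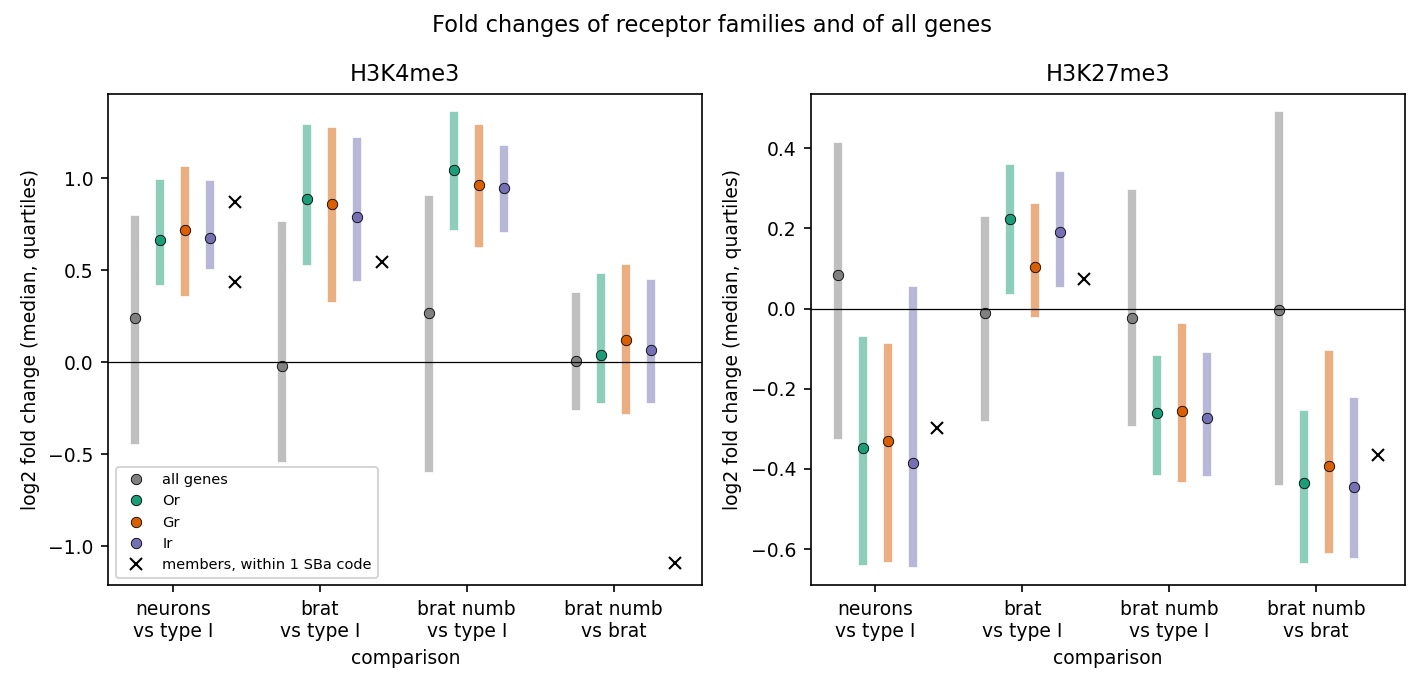
Log2 fold changes of the Or, Gr and Ir families and of all genes in the 4 comparisons for H3K4me3 (left) and H3K27me3 (right), with a point at the median, a bar from the lower to the upper quartile, and crosses at the member median in each pair of libraries with the same SBa code. Members move above all genes against type I neuroblasts for H3K4me3 and below them for H3K27me3 except in brat RNAi neuroblasts, and the H3K4me3 cross for brat RNAi numb RNAi against brat RNAi, at -1.09, lies far from its pooled medians.

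For H3K27me3 in neurons against type I neuroblasts, 0 of 181 members and 0.0% of all genes were called. At an unadjusted p under 0.05, 30 members were lower (10 Or, 9 Gr and 11 Ir; background 5.06%) and 3 higher (background 3.94%). The fold change was above 0 at 41 members (background 55.7%), with medians of -0.35 for members and 0.08 for all genes. The pair of libraries of code SBa 26 gave -0.30. The 3 members that were higher were Or42b, Ir21a and Ir31a, a receptor for an organic acid, the last with 4.01 and 5.94 CPM per kb in type I neuroblasts, 6.40 and 10.4 in brat RNAi, 5.72 and 5.91 in brat RNAi numb RNAi and 8.30 and 10.96 in neurons. Without neurons replicate 1 the member median was -0.55, and without replicate 2 it was -0.21. Neurons replicate 2 held the lowest H3K27me3 of 107 members, and it is the library with the lowest Hox level. The share of all genes lowest in that library was not counted.

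Or33c, Gr59a and Ir94g had the smallest p of their families here. Or33c, an odorant receptor of the palp, measured 17.1 and 14.6 CPM per kb in type I neuroblasts, 20.8 and 20.8 in brat RNAi, 13.6 and 15.4 in brat RNAi numb RNAi and 9.59 and 9.22 in neurons, and Ir94g 23.2 and 18.9 CPM per kb in type I neuroblasts, 21.7 and 19.7 in brat RNAi, 14.3 and 13.3 in brat RNAi numb RNAi and 12.8 and 11.3 in neurons. At Or33c both neuron values lie below all 6 neuroblast values, and its change was -0.75 ± 0.27 (log2, SE) (adjusted p = 0.53).

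In brat RNAi against type I neuroblasts, 0 members and 0.0% of all genes were called for H3K27me3. Unadjusted, 4 members were higher (background 3.12%) and a single member lower (background 2.82%). The higher ones include Or42b, Gr36a and Ir41a, a receptor subunit for polyamines whose gene model of 72289 bases is the longest of the members. The lower one was Gr59e, with 16.2 and 18.2 CPM per kb in type I neuroblasts, 7.96 and 9.13 in brat RNAi, 16.4 and 16.7 in brat RNAi numb RNAi and 12.6 and 9.70 in neurons: both brat RNAi values lie below all others, and the change was -1.01 ± 0.28 (log2, SE) (adjusted p = 0.68). The fold change was above 0 at 140 members (background 49.0%), with medians of 0.15 and -0.01, the pair of code SBa 26 gave 0.07, and without type I replicate 2 the member median was 0.09.

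In brat RNAi numb RNAi against type I neuroblasts, 0 members and 0.0% of all genes were called. Unadjusted, none was higher (background 1.1%) and 3 were lower (background 1.86%). They include Gr92a, with 12.8 and 8.36 CPM per kb in type I neuroblasts, 11.1 and 17.3 in brat RNAi, 6.83 and 4.98 in brat RNAi numb RNAi and 8.92 and 10.6 in neurons, and Or67a, an odorant receptor, with 17.8 and 16.6 CPM per kb in type I neuroblasts, 17.001 and 18.3 in brat RNAi, 11.1 and 9.95 in brat RNAi numb RNAi and 14.1 and 11.6 in neurons. The fold change was above 0 at 33 members (background 48.3%), and the median was -0.26 for members and -0.02 for all genes. Leaving out each library moved the member median between -0.38 and -0.13, the latter without type I replicate 1.

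The RNAi groups were then set against each other. In brat RNAi numb RNAi against brat RNAi neuroblasts the member median for H3K27me3 was -0.43 (Or -0.44, Gr -0.39 and Ir -0.45) and that of all genes -0.003, and 29 members had a fold change above 0 (background 49.9%). No member was called (0.0% of all genes). Unadjusted, 28 members were lower (background 10.1%) and 2 higher (background 8.61%), so the share of lower members, 15.5%, lay above the background and that of higher members below it. The pair of code SBa 68 gave a member median of -0.36, and leaving out each library gave -0.46 to -0.32.

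Ir41a, Gr92a and Or98a had the smallest p of their families in this comparison. Ir41a measured 17.01 and 14.6 CPM per kb in type I neuroblasts, 25.03 and 21.6 in brat RNAi, 13.7 and 13.97 in brat RNAi numb RNAi and 12.6 and 11.6 in neurons, with every brat RNAi value above every brat RNAi numb RNAi value, and a change of -0.75 ± 0.16 (log2, SE) (adjusted p = 0.20). Gr92a had -1.27 ± 0.35 (log2, SE) and Or98a by -0.87 ± 0.27 (log2, SE), with adjusted p of 0.20 and 0.21. Gr59e went the other way, 0.96 ± 0.28 (log2, SE) (adjusted p = 0.20).

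The scaling of the libraries moves these medians together with those of all genes. With library totals in place of TMM, the median of all genes was 0.61, 0.39, 0.83 and 0.11 for H3K4me3 and 0.08, -0.15, 0.17 and 0.33 for H3K27me3, in the order of the comparisons above. A scaling factor shifts all genes of a library alike, so the member median relative to all genes can change little by construction. Its narrow range is therefore no test of the scaling. Across TMM, DESeq2 size factors and library totals, this relative median for H3K27me3 was -0.46 to -0.43 in neurons against type I neuroblasts. It was 0.16 to 0.17 in brat RNAi and -0.24 to -0.22 in brat RNAi numb RNAi against type I neuroblasts. Between the RNAi groups it was -0.43 to -0.41. For H3K4me3 it was 0.42 to 0.51, 0.86 to 0.90, 0.68 to 0.80 and 0.01 to 0.17.

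Genes that work with the receptors were read in the same way. The 56 chemosensory partners (Orco, Snmp and ppk genes, the odorant-binding proteins and others) had median percentiles of 28.7 for H3K4me3 and 74.9 for H3K27me3, close to those of the receptors. Their median H3K27me3 change between the RNAi groups was -0.37, and 0 of 56 were called there or in any other comparison, with 7 lower and 0 higher at an unadjusted p under 0.05 between the RNAi groups, where 10.1% and 8.61% of all genes were. The 15 transcription factor genes that direct receptor choice, such as acj6 and pdm3, had median percentiles of 48.5 and 81.9. For H3K27me3 the percentile was 96.7 and 93.7 in neurons and 72.0 to 82.3 in the neuroblast libraries. Their median levels in neurons lay far apart (56.5 and 13.3 CPM per kb, against 11.2 to 17.8 in neuroblasts). Of the 15, 0 were called in any comparison, where at most 0.451% of all genes were. Of the 8 Hox genes 0 were called; their median H3K27me3 was 134 and 25.5 CPM per kb in neurons and 78.7 and 43.1 CPM per kb in type I neuroblasts, so the neuron libraries lie on opposite sides of both type I values. These lists were chosen with earlier results of these data known.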

How the data were processed

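The 16 chromatin immunoprecipitation libraries analysed cover 2 marks in 4 groups with 2 libraries each, and 14 input samples were not analysed here. The authors deposited whole-number read counts per gene, for H3K4me3 in a 501-base window at the gene start and for H3K27me3 over the gene model. The build dm3 and the tools bedtools 2.25.0, Bowtie2 2.2.4 and deepTools 2.5.0.1 are listed per the submitters' processing notes; their settings are not given in the sources used here. Immunoprecipitation used antibodies against each mark per the labels' protocols.

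For each mark, edgeR 4.0.16 under R 4.3.3 (TMM scaling, filterByExpr by group, robust quasi-likelihood F-test) was run on the 8 libraries together, with 4 residual degrees of freedom and Benjamini-Hochberg adjustment across every gene tested (14185 and 14182; all 181 members passed the filter). Calls are at an adjusted p under 0.05. The SE of a log2 fold change is its size divided by the square root of F. Ratios within an SBa code use a pseudocount of 0.5 CPM. The fits were tested on simulated data, with changes placed only in genes whose mean level was above the median. For H3K4me3 most members lie below the median, so that test does not cover calls at their levels. No label states that the libraries come from separate animals, so p-values measure the spread between these libraries, which differed beyond sampling noise within each group. Median reads per member and library had 95% Poisson intervals of 22.7 to 46.3 at the lowest H3K4me3 depth and 449 to 536 at the highest H3K27me3 depth, and such intervals cover counting error only.

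Genes named are members past the threshold (there were none), per family the 3 with the most of each mark and the member with the smallest p in each comparison, 16 receptors of known role, and Orco or a gene beside a named member. Alternatives were DESeq2 1.42.0 (size factors or its own test), library totals, no filter, only the groups compared, blocks for replicate number or SBa code, each library left out, and members sharing no base with other genes. The members and lists were chosen with earlier results of these data known. Same-numbered libraries did not deviate together in every pair of groups (correlations from -0.62 to 0.74 for H3K4me3), so the replicate numbers were not taken as pairs.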

Additional observations from a re-analysis of the deposited data

How the results depend on the processing

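The count of 0 members called held in all 8 comparisons with DESeq2, DESeq2 size factors, library totals, no filter, only the groups compared and each library left out. A block on the SBa code could not be fitted for H3K27me3; for H3K4me3, with a single residual degree of freedom, the H3K4me3 counts were 52 in neurons, 1 in brat RNAi and 3 in brat RNAi numb RNAi against type I neuroblasts, and 66 between the RNAi groups, beside 32.5%, 4.03%, 2.44% and 26.9% of all genes. The member medians were then -0.39 in brat RNAi numb RNAi against type I neuroblasts and -1.15 between the RNAi groups. Or49b, Gr36a and Ir94f reversed to -0.42, -0.80 and -1.37 against type I neuroblasts. In this fit brat RNAi numb RNAi replicate 1 has no weight, because no other library of this mark shares its code. The -0.39 links replicate 2 to type I neuroblasts only through the brat RNAi libraries, and no other cause was tested. With the replicate number as a block (replicate block), 2 members (0.585% of all genes) were called lower for H3K27me3 between the RNAi groups, Ir41a among them (-0.75, adjusted p = 0.040 by edgeR), and no other count of members changed. Without brat RNAi numb RNAi replicate 1, and with the 3 libraries low at ribosomal genes left out (added after seeing the data), Gr36a reversed to -0.18 against type I neuroblasts (range -0.18 to 2.78 over the libraries left out). Leaving those 3 out leaves a single library in every group but type I neuroblasts. Gr65a and Ir94e then reversed to -0.13 and -0.37 between the RNAi groups, and the member median in neurons was 0.050. Leaving out each library moved the H3K4me3 member medians from 0.053 to 1.29 in neurons, 0.30 to 1.26 in brat RNAi, 0.20 to 1.45 in brat RNAi numb RNAi, and -0.91 to 0.96 between the RNAi groups. For H3K27me3 the ranges were -0.55 to -0.21, 0.09 to 0.22, -0.38 to -0.13 and -0.46 to -0.32. With library totals the H3K27me3 medians were 0.022 in brat RNAi, -0.047 in brat RNAi numb RNAi and -0.078 between the RNAi groups, beside all-gene medians that moved with them. Without division by length, the median member ranked at percentile 57.8 for H3K27me3. Of the values for answers to a comparison, 259 kept their side and 19 moved; of those for single genes, 347 kept theirs, 6 passed the threshold and 7 reversed. Depth limits H3K4me3 most, where a member had a median of 33 to 99 reads.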
